A study of Rattus norvegicus with 6 samples.

Results

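MiRNAs that mark blood vessels and blood-derived cells were followed in small RNA libraries of cultured rat cortical neurons. The set was defined by cell lineage, through the names in the count files. It holds 8 mature miRNAs: rno-miR-126a-3p and rno-miR-126a-5p for endothelial cells, rno-miR-143-3p and rno-miR-145-5p for smooth muscle cells and pericytes, and rno-miR-142-3p, rno-miR-142-5p, rno-miR-223-3p and rno-miR-150-5p for leukocytes and microglia. Of these, 7 are among the 649 mature miRNAs listed in the count files, and miR-223-3p was not analysed here. The neurons came from Sprague-Dawley embryos at embryonic day 18 and, by the sample labels, had been kept for 7 days in vitro. For 20 min they received BDNF (brain-derived neurotrophic factor, 100 ng/ml) or its vehicle, BSA at 0.1%, with 3 Control and 3 BDNF libraries that carry the replicate numbers 1 to 3. All cortical cultures, treated or not, were exposed from day 4 to fluorodeoxyuridine, given to keep non-neuronal cells from dividing. How many such cells remained was not measured here. No cell type was sorted, so each library is made from the RNA of a whole dish.

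Mature miRNAs are short RNAs cut by Drosha and then Dicer from a hairpin, whose 5′ arm (5p) and 3′ arm (3p) can each be loaded onto an Argonaute protein. Several are made almost entirely in certain lineages, so that they serve as tracers of cells in bulk RNA. MiR-126 lies in an intron of Egfl7 and is the characteristic endothelial miRNA, acting on VEGF signalling through its 3p arm. MiR-143 and miR-145 are made from a common transcript in smooth muscle cells and pericytes and act on the contractile program of these cells. MiR-142 is made throughout the haematopoietic lineage, microglia included, and miR-150 is abundant in mature lymphocytes. In embryonic cortex these lineages are represented by the capillary wall, its pericytes, blood left in the vessels and microglia.

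The mature sequences of the endothelial and leukocyte hairpins are shown because both arms of each were measured and read separately. They are taken from RefSeq (build GRCr8), 5′ to 3′, with the seed, bases 2 to 8, in capitals. RefSeq held 6 of the 7 listed members.
miR-126a-5p: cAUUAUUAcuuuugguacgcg
miR-126a-3p: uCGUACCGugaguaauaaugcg
miR-142-5p: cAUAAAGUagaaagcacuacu
miR-142-3p: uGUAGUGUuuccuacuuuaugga
The miR-126a arms lie at chr3:29813182-29813202 and chr3:29813219-29813240 on the plus strand, within Egfl7. The miR-142 arms lie at chr10:73055119-73055139 and chr10:73055155-73055177 on the plus strand. In the miR-142 hairpin (chr10:73055104-73055190, 87 bases) the capitals mark both arms, which face each other across the loop.
miR-142 hairpin: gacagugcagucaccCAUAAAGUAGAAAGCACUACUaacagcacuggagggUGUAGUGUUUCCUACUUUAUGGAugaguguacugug
The opposite strand of the miR-126 locus carries miR-126b (chr3:29813177-29813198, minus strand), whose 17 capital bases are the reverse complement of part of miR-126a-5p.
miR-126b: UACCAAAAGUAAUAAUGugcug
Because the strands differ, the reads of miR-126a-5p and miR-126b have different letters, and miR-126b was not analysed here. The seed of miR-143-3p is GAGAUGA and that of miR-145-5p is UCCAGUU, and their hairpins stand 1278 bases apart on 1 strand. None of the 6 seeds was shared with any other of the 693 mature miRNAs in the RefSeq table, so each of these 6 members stood alone in its seed group. The seed of miR-150-5p, which had no entry, was not compared.

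The values are read counts, with between 10374120 and 12533029 counts per library. Levels are given as RPM, reads per 1000000 counts of the library, and normalized RPM are also divided by the TMM factor of edgeR, which ranged from 0.928 to 1.085 and corrects for shifts in the most abundant miRNAs. Replicates of a condition all differed by more than sampling noise. The label of the culture was checked with 7 neuronal miRNAs, all of which passed the filter of 10 RPM and which together made up 349786 to 425106 RPM. Among them, miR-124-3p had 4785 to 5879 RPM and miR-9a-5p, which neural progenitors and neurons share, 249572 to 331060 RPM. The 4 listed glial miRNAs together made up 5617 to 7529 RPM. Most of this was miR-21-5p, whose mean of 6596 RPM was above that of miR-124-3p (5244 RPM). The rest of the glial list was far below miR-124-3p, with means of 24.7 RPM for miR-219a-5p, 14.3 RPM for miR-146a-5p and 8.99 RPM for miR-338-3p. The share of neurons among the cells was not measured.

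The 7 listed vascular and blood-lineage miRNAs together took 136 to 207 RPM, with a median of 157 RPM over the 6 libraries. Nearly all of it came from 3 of them. MiR-143-3p had a mean of 76.5 ± 19.6 RPM (SD, n = 6), miR-126a-3p 68.7 ± 9.4 RPM (SD, n = 6) and miR-126a-5p 18.4 ± 2.2 RPM (SD, n = 6), and they ranked at 198, 203 and 301 among the 649 miRNAs. These 3 passed the filter, and the other 4 were far below it. MiR-142-5p had 1.39 ± 0.54 RPM (SD, n = 6), miR-150-5p 0.773 ± 0.134 RPM (SD, n = 6), miR-142-3p 0.585 ± 0.397 RPM (SD, n = 6) and miR-145-5p 0.237 ± 0.144 RPM (SD, n = 6). In the order of levels, the ranges over the libraries were separate at 2 steps only. MiR-126a-3p exceeded miR-126a-5p in 6 of 6 libraries by 3.72-fold, and miR-126a-5p exceeded miR-142-5p in 6 of 6 libraries by 14.0-fold (geometric means). An exact sign-flip permutation test over the 6 libraries, two-sided, gave P = 0.03125 for each, the smallest it can give, and P = 0.0938 after Benjamini-Hochberg adjustment over the 6 neighbouring pairs. This test treats the libraries as independent, although they share 3 replicate numbers. Over 3 units a sign-flip test cannot give less than 0.25. The order was also set by the same values that were tested. MiR-143-3p and miR-126a-3p were not separated (exact P = 0.219, adjusted 0.25), nor were neighbours in the order among the 4 rare miRNAs (adjusted exact P of at least 0.125). Pairs further apart in the order were not tested. Among the rare miRNAs, miR-142-5p (0.924 to 2.31 RPM) and miR-150-5p (0.671 to 1.03 RPM) each lay above miR-145-5p (0.0856 to 0.482 RPM) without overlap. A read spans a whole mature miRNA, whose length was 21 to 23 bases where known, so RPM were not divided by length. Adapters join to some miRNAs more readily than to others, so an order of levels between miRNAs describes the libraries and was not calibrated to molecules per cell.

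**Figure D1:**
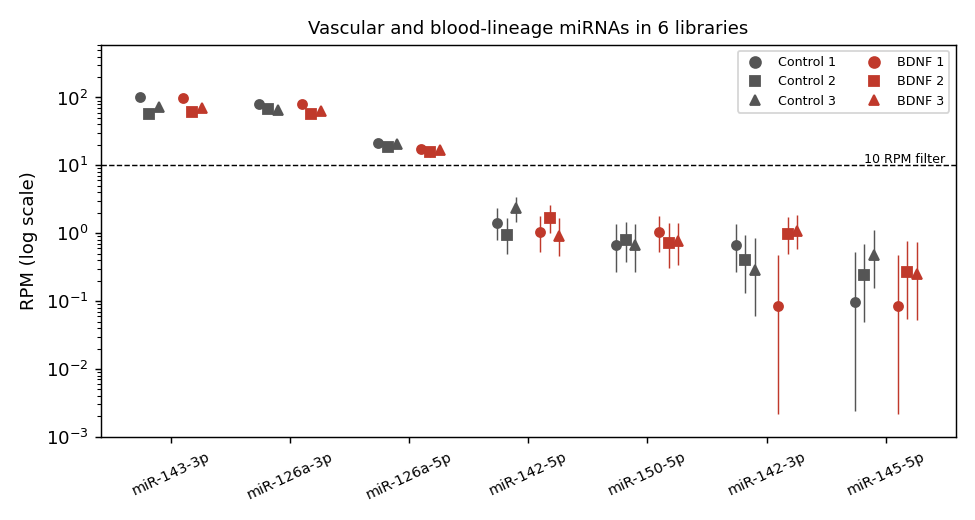
RPM (log scale) of the 7 listed miRNAs in each library, with 95% exact binomial intervals that cover counting error only; grey points are Control, red points BDNF, and the shape gives the replicate number. The miRNAs fall on either side of the dashed 10 RPM filter, with miR-143-3p, miR-126a-3p and miR-126a-5p above it in every library and the other 4 at or below 2.31 RPM.

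The endothelial hairpin gave reads from both arms. For replicates 1 to 3, miR-126a-3p had 830, 845 and 677 reads in Control and 935, 637 and 753 reads in BDNF libraries. This corresponds to 79.5, 67.4 and 65.3 RPM in Control and 80.0, 56.5 and 63.3 RPM in BDNF libraries. The replicate 1 libraries of both conditions were thus the highest, and the conditions overlapped. MiR-126a-5p had 212 to 237 reads in Control and 175 to 205 reads in BDNF libraries. Its RPM were 21.4, 18.9 and 20.4 in Control and 17.5, 15.5 and 16.9 in BDNF libraries. All BDNF values were below all Control values on this scale.

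Of the mural pair, miR-143-3p was counted 1076, 707 and 738 times in Control and 1148, 684 and 828 times in BDNF libraries. Its RPM were 103, 56.4 and 71.1 in Control and 98.3, 60.6 and 69.6 in BDNF libraries. Both replicate 1 libraries stood above the other 4, whatever the treatment. Its cluster partner miR-145-5p was almost unread, with 1, 3 and 5 reads in Control and 1, 3 and 3 reads in BDNF libraries. Over all libraries there were 5181 reads of miR-143-3p and 16 of miR-145-5p, a ratio of 324. The libraries with the most reads of miR-143-3p, those of replicate 1, were those with a single read of miR-145-5p, but the 95% exact binomial intervals of miR-145-5p in all 6 libraries shared a common range. The opposite arms were also rare, at 2 to 9 reads of miR-143-5p and 3 to 10 of miR-145-3p per library. Of the 4 arms of the cluster, miR-143-3p alone exceeded 10 reads in any library.

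The leukocyte miRNAs were at the edge of detection. MiR-142-5p was counted 15, 12 and 24 times in Control and 12, 19 and 11 times in BDNF libraries. MiR-142-3p was counted 7, 5 and 3 times in Control and 1, 11 and 13 times in BDNF libraries. MiR-150-5p, the lymphocyte miRNA, was counted 7, 10 and 7 times in Control and 12, 8 and 9 times in BDNF libraries. For miR-142-5p and miR-150-5p the 95% exact binomial intervals of all 6 libraries shared a common range, but overlap of intervals is no test of a difference, and pairs of libraries were not tested. MiR-142-5p ranged from 0.924 RPM in BDNF replicate 3 to 2.31 RPM in Control replicate 3. The intervals of miR-142-3p did not all overlap, because the single read of BDNF replicate 1 (0.0856 RPM, interval 0.00217 to 0.477) lay below the 13 reads of BDNF replicate 3 (1.09 RPM, interval 0.582 to 1.87). Both are BDNF libraries, so the gap is between replicates of a condition. These intervals cover counting error only, and they treat reads as independent molecules. Reads without molecular identifiers need not be independent, so the intervals can be too narrow.

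The first comparison asks how these miRNAs varied between replicate numbers, each of which holds a Control and a BDNF library. MiR-143-3p and miR-126a-3p differed between numbers, and both were highest in number 1. For miR-143-3p, the normalized RPM were 104 and 106 in the Control and BDNF libraries of number 1, 59.1 and 62.5 in those of number 2, and 65.8 and 64.1 in those of number 3. Both libraries of number 1 thus stood apart from the other 4, while numbers 2 and 3 were close to each other. In edgeR's quasi-likelihood F test, with treatment as a further term, the adjusted P-value was 0.000741. MiR-143-3p was 1.72-fold higher in number 1 than in number 2 (log2 difference of number 2 minus number 1 -0.79, standard error 0.09) and 1.61-fold higher than in number 3 (log2 difference -0.69, standard error 0.09). Numbers 3 and 2 differed by 0.10 on the log2 scale (standard error 0.09).

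For miR-126a-3p, the normalized RPM were 80.1 and 86.3 in the Control and BDNF libraries of number 1, 70.7 and 58.2 in number 2, and 60.4 and 58.3 in number 3. The pair of number 1 was again above all other libraries. The adjusted P-value of the edgeR F test was 0.0199, with number 1 higher than number 2 by 1.29-fold and higher than number 3 by 1.40-fold (log2 differences of -0.37 and -0.49 from number 1, standard errors 0.12 and 0.12). This call was less firm than that of miR-143-3p. The adjusted P-value was 0.0510 when libraries were scaled by size alone, 0.147 without BDNF replicate 1, 0.115 without Control replicate 3 and 0.103 without BDNF replicate 3. MiR-126a-5p did not pass, with an adjusted P-value of 0.236 in the edgeR F test. Its means per number were 20.2, 17.9 and 17.2 normalized RPM for numbers 1, 2 and 3. The 4 rare miRNAs, taken from the edgeR fit without a filter, had adjusted P-values of at least 0.634.

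These calls stand among many. Over all 336 miRNAs tested, 162 (48.2%) differed between numbers at an adjusted P-value below 0.05, and 79 (23.5%) did so with number 1 highest, against 2 of the 3 members tested. The largest difference between any numbers was 0.79 on the log2 scale for miR-143-3p, 0.49 for miR-126a-3p and 0.23 for miR-126a-5p, beside a median of 0.34 over all miRNAs tested. By this size they ranked at 41, 104 and 219 of 336. Of the 16 tested miRNAs of all cell type lists, the members included, 9 differed between numbers, 6 of them with number 1 highest and 2 with number 1 lowest. The part of cell composition in the difference was not tested. MiR-199a-3p, a miRNA of mesenchymal cells, was 1.46-fold and 1.52-fold higher in number 1 than in numbers 2 and 3 (adjusted P = 0.00798 in the edgeR F test). Of the 3 glial miRNAs tested 2 differed, where miR-21-5p was 1.08-fold and 1.49-fold higher in number 1 (adjusted P = 0.00220) and miR-146a-5p 1.60-fold and 1.24-fold higher (adjusted P = 0.0158), while miR-219a-5p did not pass (adjusted P = 0.393 in the edgeR F test). The erythrocyte miR-451-5p, below the filter, differed in the edgeR fit without a filter (adjusted P = 0.0138) and was highest in number 2, with log2 differences from number 1 of 0.73 for number 2 and -0.21 for number 3. Of the 7 neuronal miRNAs 4 differed between numbers, in no common direction. MiR-9a-5p was highest in number 1, by 1.04-fold and 1.34-fold over numbers 2 and 3 (adjusted P = 0.0129), and miR-9a-3p was highest in number 2 (adjusted P = 0.0366 in the edgeR F test). MiR-138-5p was lowest in number 1 (adjusted P = 0.0129), and so was the activity-induced miR-132-3p, with mean normalized RPM of 574, 802 and 1520 in numbers 1, 2 and 3 (adjusted P = 3.48e-05 in the edgeR F test). The neuronal miR-124-3p was among those that did not pass, with an adjusted P-value of 0.502. In bulk RNA, fewer cells of a type and less of the miRNA per cell cannot be told apart.

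**Figure D2:**
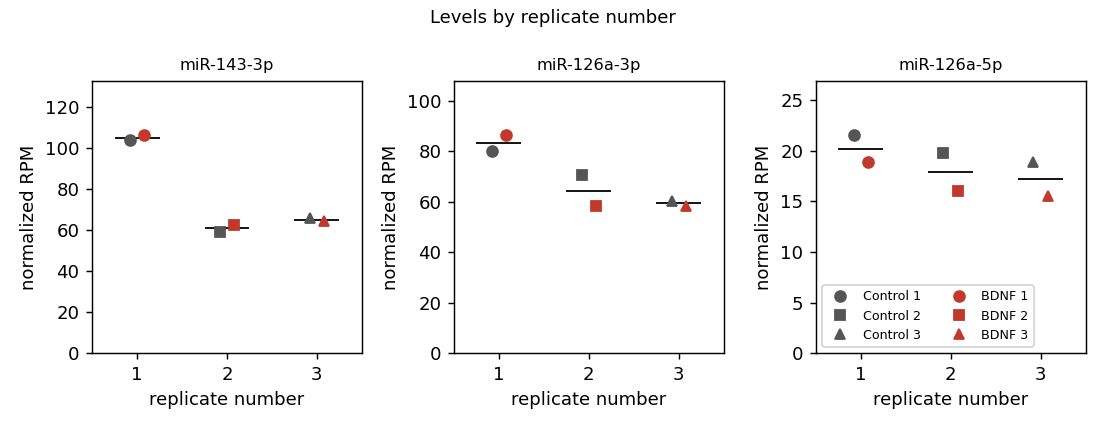
Normalized RPM of the 3 miRNAs above the filter (axes from 0), by replicate number, with the Control library in grey, the BDNF library in red and their mean as a bar. Both libraries of number 1 lie above the other 4 for miR-143-3p and miR-126a-3p, while for miR-126a-5p the numbers overlap and the BDNF library is the lower of each pair.

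The second comparison asks whether 20 min of BDNF changed these miRNAs. Without a replicate block, edgeR gave an unadjusted P-value below 0.05 to 10 of 336 miRNAs (2.98%), and none of the 3 members tested was among them. After adjustment none of the 336 passed (0%). DESeq2 and limma-voom likewise gave no adjusted call, with 12 and 11 miRNAs at an unadjusted P-value below 0.05. Control and BDNF libraries that shared a number deviated alike from their condition means, so the block, which compares within numbers, gave narrower intervals for the 3 members tested.

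The mean level of miR-143-3p was 76.2 ± 24.1 normalized RPM for Control (SD, n = 3) and 77.5 ± 24.6 for BDNF libraries (SD, n = 3). The ratio of BDNF to Control was 1.02, 1.06 and 0.97 in numbers 1 to 3, higher in 2 of 3 pairs. A log2 fold change of 0.02 (standard error 0.29) was found, with a 95% interval from -0.68 to 0.73 and an adjusted P-value of 0.999 in edgeR. With the replicate block the interval narrowed to between -0.15 and 0.20. The mean level of miR-126a-3p was 70.4 ± 9.8 normalized RPM for Control (SD, n = 3) and 67.6 ± 16.2 for BDNF libraries (SD, n = 3), with ratios of 1.08, 0.82 and 0.97. Its log2 fold change of -0.06 (standard error 0.20) had a 95% interval from -0.54 to 0.43 and an adjusted P-value of 0.999 in edgeR. With the block the interval ran from -0.29 to 0.15. For both miRNAs the difference was smaller than the spread between replicates.

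MiR-126a-5p was the only member tested for which the block changed a call at the unadjusted threshold. Its mean level was 20.1 ± 1.3 normalized RPM for Control (SD, n = 3) and 16.8 ± 1.8 for BDNF libraries (SD, n = 3). The ratio was 0.88, 0.81 and 0.82 in numbers 1 to 3, lower in 3 of 3 pairs, as it was for 23.8% of all miRNAs tested. A log2 fold change of -0.26 (standard error 0.13) was found, with a 95% interval from -0.57 to 0.06. In edgeR the P-value was 0.0935 before and 0.999 after adjustment. With the replicate block the log2 fold change was -0.26 (standard error 0.09), the unadjusted P-value 0.0249 and the adjusted P-value 0.178. The block gave an unadjusted P-value below 0.05 for 69 of 336 miRNAs (20.5%), against 1 of the 3 members, and no miRNA of the 336 passed after adjustment. In RPM the conditions did not overlap for miR-126a-5p, as for 5.36% of all miRNAs tested, and the exact permutation test gave P = 0.1, the smallest possible with n = 3 per group. In normalized RPM, where 7.14% of all miRNAs tested were without overlap, the conditions of miR-126a-5p overlapped, because BDNF replicate 1 at 18.92 was level with Control replicate 3 at 18.91 (exact permutation P = 0.2).

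The 4 rare miRNAs were read from the edgeR fit without a filter, where each had an adjusted P-value of 1.00 without the block and at least 0.787 with it. Their 95% intervals were wide. That of miR-142-3p ran from -0.91 to 2.24 on the log2 scale, that of miR-142-5p from -1.20 to 0.57, that of miR-150-5p from -0.60 to 1.07 and that of miR-145-5p from -2.03 to 1.26. Changes within these intervals were not excluded at this depth, and the smallest detectable change was not computed.

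**Figure D3:**
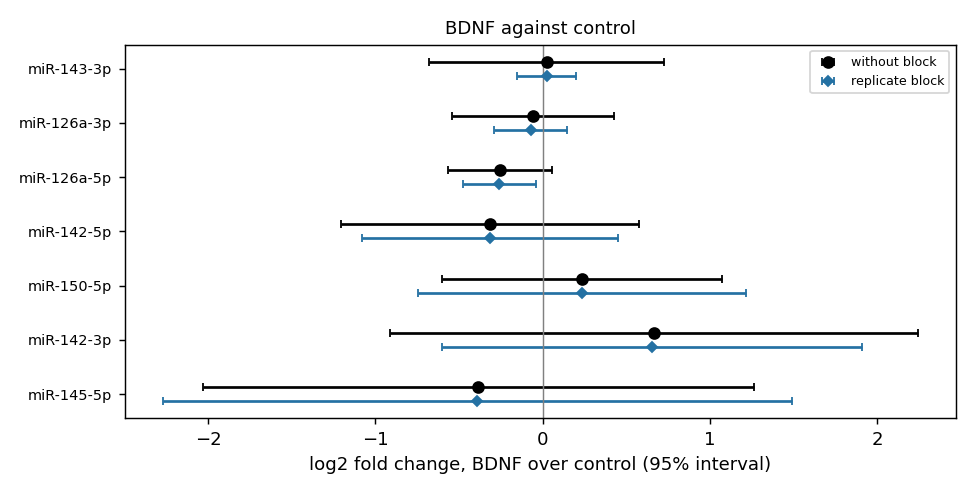
Log2 fold change of BDNF over Control with its 95% interval for the 7 listed miRNAs, from edgeR without (black) and with (blue) the replicate block; the upper 3 come from the filtered fit and the lower 4 from the fit without a filter. Only the blocked interval of miR-126a-5p, from -0.47 to -0.04, lies off 0, and the block narrows the interval most for miR-143-3p.

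The arms of a hairpin are made in equal number, so their ratio does not depend on how much of the hairpin a library holds. That ratio reflects which arm is kept and how readily adapters join to each arm, and these were not separated. For miR-126a the 3p arm prevailed in 6 of 6 libraries, by 3.19-fold to 4.56-fold. The log2 5p/3p ratio was -1.90, -1.83 and -1.68 in Control and -2.19, -1.86 and -1.91 in BDNF libraries. Each BDNF value was below its Control partner, but the conditions overlapped. The difference in mean log2 ratio was -0.18, and the exact permutation test over 3 against 3 libraries gave P = 0.2, where 0.1 is the smallest possible. For miR-142 the 5p arm was the more frequent in 5 of 6 libraries, with 93 reads against 40 over all libraries. Its log2 5p/3p ratio ran from -0.24 to 3.58, a range set by as little as 1 read of the 3p arm, and no difference between conditions was detected (exact permutation P = 0.8). The 3p arm of miR-143 outnumbered the 5p arm by 82-fold or more in every library.

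The members were set beside lists of miRNAs of other tissues and cells, summed per library. The endothelial list, both arms of miR-126a, had 72.0 to 101 RPM, and the mural list, the 4 arms of miR-143 and miR-145, 57.1 to 104 RPM. The mesenchymal list, the 3 listed arms of miR-199a and miR-214, had 15.5 to 27.2 RPM, nearly all from miR-199a, since miR-214-3p had at most 3 reads in any library. The leukocyte list of 6 arms, miR-142, miR-150 and miR-155, had 4.20 to 5.75 RPM, of which miR-155-5p gave 14 to 27 reads per library. Its sum lay below that of miR-122-5p, a hepatocyte miRNA, at 11.4 to 16.3 RPM, and below that of 4 miRNAs of striated muscle, at 11.3 to 18.3 RPM, in every library. Liver and skeletal muscle are not part of a cortical culture. Where the reads of these lists came from was not tested, nor was the source of the leukocyte reads. The muscle sum came mostly from miR-206-3p (mean 8.88 RPM) and miR-133a-3p (4.09 RPM), and single leukocyte miRNAs such as miR-155-5p (2.02 RPM) and miR-142-5p (1.39 RPM) had higher means than the muscle miR-1-3p (0.800 RPM) and miR-133b-3p (0.521 RPM). The endothelial and mural sums were above both in every library. The mural sum was nearly all miR-143-3p (mean 76.5 RPM). The other arms of that list, miR-145-3p (0.487 RPM), miR-143-5p (0.470 RPM) and miR-145-5p (0.237 RPM), had means far below miR-122-5p (13.4 RPM).

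Erythrocyte miRNAs gave a divided picture. Their sum was 390 to 492 RPM, but it consisted almost entirely of miR-486, with 4562 to 5817 reads per library, which is made in muscle as well as in red cells. MiR-451-5p, the defining erythrocyte miRNA, had 22 to 51 reads, miR-144-3p 9 to 23 and miR-144-5p 4 to 13. Of all these lists, 0 of 16 tested miRNAs had an unadjusted P-value below 0.05 for BDNF without the block, beside 2.98% of all 336. With the block 1 endothelial, 1 mesenchymal and 2 neuronal miRNAs did, 4 of 16 beside 20.5% of all 336, and none after adjustment. The endothelial miRNA was miR-126a-5p, and the mesenchymal was miR-199a-3p with a log2 fold change of 0.27 (standard error 0.10, unadjusted P = 0.0277, adjusted P = 0.190 in edgeR with the replicate block). The median log2 fold change was -0.06 over the 3 members tested and -0.0015 over all 336 miRNAs.

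**Figure D4:**
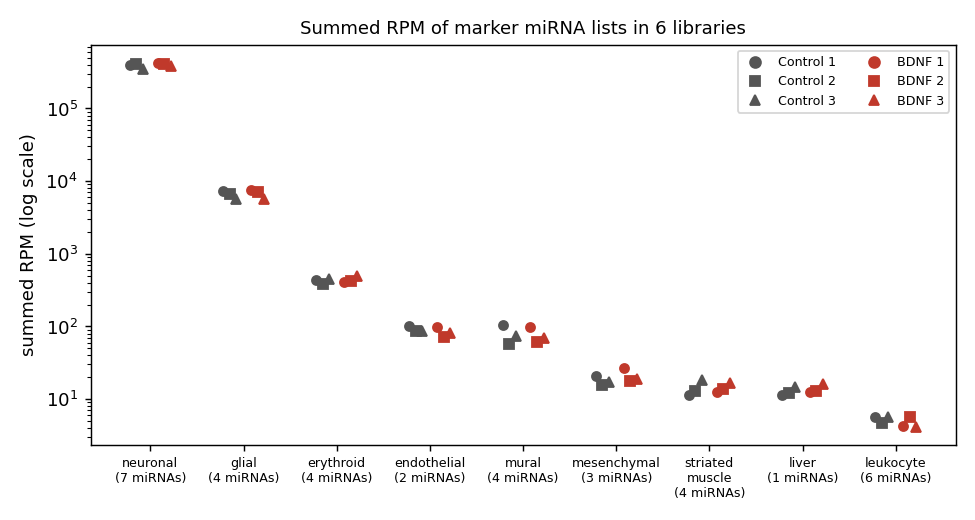
Summed RPM (log scale) of each marker list in the 6 libraries, with the number of listed miRNAs under each name, Control in grey, BDNF in red and the replicate number as the shape. The endothelial and mural sums lie between 57.1 and 104 RPM, above the liver and striated muscle lists, while the leukocyte sum stays at or below 5.75 RPM, under both.

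The miRNAs with the most similar profile were sought among all tested, as the smallest root mean square difference of log2 normalized RPM, each centred on its own mean over the 6 libraries. For miR-143-3p these were miR-192-5p (0.10), miR-503-5p (0.12) and miR-34c-5p (0.14), beside a median of 0.38 over the other 335 miRNAs. For miR-126a-3p they were miR-221-5p (0.05), miR-28-3p (0.09) and miR-322-3p (0.10), beside a median of 0.27. For miR-126a-5p they were miR-374-5p (0.05), miR-139-5p (0.06) and miR-151-5p (0.07), beside a median of 0.24. The arms of miR-126a were not among each other's nearest 3, and neither were the mural and endothelial members. The log2 ratio of miR-126a-3p to miR-126a-5p had an SD of 0.17 over the 6 libraries. Counting error was not separated from these distances, and whether the arms differed in profile was not tested. These distances describe 6 libraries that share 3 replicate numbers.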

How the data were processed

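Small RNA was sequenced from 3 Control and 3 BDNF libraries, which the methods describe as 3 biological replicates, and groups and replicate numbers were taken from the sample titles. The labels give 7 days in vitro, which is used here, while the legend to the sequencing data gives 6. The authors trimmed the 3′ adapter, removed reads of low quality or below 15 bases and mapped what remained with Miraligner to the mature rat miRNAs of miRBase 21, allowing 1 mismatch and trimmed or extended ends. The deposited values are raw read counts per mature miRNA, and the Miraligner version is not given in the sources used here. Counts were tested with edgeR 4.0.16 (R 4.3.3) as deposited, with TMM factors, the quasi-likelihood test and the 10 RPM filter of the methods (mean of either condition, 336 miRNAs). DESeq2 1.42.0 and limma 3.58.1 (voom) were alternatives, as were size scaling, other filters, a replicate block and leaving out each library. The scripts were tested on simulated data.

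The log2 deviations from the condition mean of libraries with the same replicate number correlated at 0.80, 0.48 and 0.89 across miRNAs for numbers 1 to 3, so the numbers were taken to pair the libraries. The text names the 8 members, their opposite arms, lists of cell type miRNAs and the 3 nearest profiles of each tested member. The members and lists were chosen with earlier results of these data known. P-values adjusted by Benjamini-Hochberg cover all miRNAs of the fit.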

Additional observations from a re-analysis of the deposited data

How the results depend on the processing

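At the unadjusted threshold the edgeR count for BDNF over all miRNAs was 10, and it was 6 with size scaling, 69 with the replicate block and 88 with the replicate block and no filter, a setting chosen after seeing the data. Leaving out single libraries gave 3 (without Control replicate 2) to 32 (without Control replicate 1). The last block setting was the only one with adjusted P-values below 0.05 for BDNF, for 20 of 649 miRNAs, none of them a member. No member passed for BDNF after adjustment under any setting run. With respect to the unadjusted threshold, the block changed no other member's call than that of miR-126a-5p. The log2 fold change of miR-126a-5p stayed below 0 throughout, at -0.35 to -0.18 without single libraries. Those of miR-126a-3p (-0.28 to 0.068) and miR-143-3p (-0.27 to 0.33) took either sign without single libraries, and miR-143-3p had -0.013 with size scaling. The count of miRNAs that differed between replicate numbers was 162, and 66 to 182 without single libraries, with 66 without Control replicate 3 and also without BDNF replicate 3. MiR-143-3p passed in all 12 alternatives, with adjusted P-values up to 0.0172, and miR-126a-3p in 8 of 12. The change in the log2 5p/3p ratio of miR-142 took either sign, from -1.51 to 0.40, while that of miR-126a ran from -0.25 to -0.08. Mean levels moved by less than the SD between libraries. The cause of these shifts was not tested. Depth limits the 4 rare miRNAs, where a few reads set every value.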
